A study of Bos taurus with 8 samples.

Results

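Globins and erythroid genes were followed in the livers of Japanese Black cattle fetuses whose dams had been fed a low or a high nutrition diet. The 10 member genes were the globins HBM, HBB and HBG, the heme synthesis gene ALAS2, the chaperone gene AHSP, the membrane protein genes SLC4A1 and EPB42, and the regulators KLF1, GATA1 and HEMGN. They were found through the RefSeq accession that the array gives for each probe, among 12603 genes that could be named in this way. The 10 genes had 18 probes. A probe counted as detected if at least 4 of the 8 arrays held it well above background, and 10 probes of 6 members (HBM, HBB, HBG, ALAS2, AHSP and GATA1) passed. SLC4A1, EPB42, KLF1 and HEMGN did not pass and are described separately.

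In the fetus the liver is a site of blood formation. Erythroblasts mature there on macrophages, fill with haemoglobin, lose their nucleus and enter the circulation, and the task passes to the bone marrow as birth approaches. GATA1 and KLF1 are transcription factors that switch on the red cell program, HEMGN is a nuclear protein of the erythroid lineage, ALAS2 catalyses the first step of heme synthesis in erythroblasts, and AHSP binds free alpha globin. SLC4A1 (band 3) is the anion exchanger of the red cell membrane, and EPB42 (protein 4.2) ties it to the skeleton beneath. HBB and HBG encode the adult and the fetal beta-like chain of cattle, and HBM encodes mu globin, a minor gene of the alpha locus.

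One array was hybridised per fetus. The LN group held 4 fetuses (L5, L6, L8 and L9) of dams fed 60% of the nutritional requirement, and the HN group held 4 fetuses (L1, L2, L3 and L10) of dams fed 120%. Both diets were given during gestation and, by the labels though not by the methods text, in the period before it. The labels give the age as 8.5 months post-conception, and the livers were taken after exsanguination, at gestation day 260 ± 8.3. The fetuses had been chosen by body weight, the lightest of the LN group and the heaviest of the HN group, so diet and weight cannot be told apart. The series text mentions pooling of RNA within groups, whereas the labels assign each array to 1 fetus, and each array was treated here as 1 fetus.

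All LN arrays lay on 1 slide with 1 scan and all HN arrays on the other, and the effect of slide or scan cannot be told apart from that of diet. Between 32635 and 33371 of 43803 spots were well above background on the LN arrays and between 33254 and 34369 on the HN arrays, and 0 spots were saturated. The hepatocyte list (albumin, alpha-fetoprotein and the like) was detected for 12 of 13 genes. Its median deviation from the 8-array mean lay between -0.037 and 0.043 on the log2 scale in every fetus. The mean log2 signal of the list was between 17.43 and 17.63, near the top of the scale. Quantile normalization makes arrays nearly alike there, so this narrow range cannot show equal hepatocyte content. Within the list, AFP (alpha-fetoprotein) ran from 16.09 in L8 to 17.47 in L5. Over all 33439 detected probes, 0 passed an adjusted p of 0.05 between LN and HN (limma with Benjamini-Hochberg adjustment), while 2113 had an unadjusted p of at most 0.05.

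A pair of fetuses stood apart in the member genes. Fetus L5 of the LN group had the highest signal of the 8 livers on all 10 detected member probes. Over the array, 16.3% of genes were highest in L5, with or without the detection filter. L5 was also highest on all 16 member probes above background on any array, but 4 of these were above background in L5 only. The inclusion of those 4 rested on L5 itself. Fetus L1 of the HN group had the lowest signal, or one at background, on the 10 detected probes. In the 6 detected members L5 was highest and L1 lowest at once, which held for 1.52% of genes. The differences of the detected members between the groups are therefore given with and without these fetuses. In whole liver RNA, fewer erythroid cells and less RNA per cell cannot be told apart.

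The values below are log2 quantile-normalized signals, in which 1 unit is a 2-fold step. The globins came first. HBM (NM_001083768) read 11.72 in L5, 7.65 in L6, 6.64 in L8 and 7.22 in L9 of the LN group. In the HN group HBM read 4.74 in L1, 6.73 in L2, 7.96 in L3 and 6.49 in L10. The groups overlapped, since L3 of the HN group exceeded L6, L8 and L9. The mean of HBM was 8.31 ± 2.31 (SD, n = 4) in the LN group and 6.48 ± 1.32 (SD, n = 4) in the HN group, a log2 difference of 1.83 ± 1.11 (SE), or 3.55-fold, with an adjusted p of 0.814 by limma. A second HBM probe gave the same order at both ends, with 10.23 in L5 and a signal not well above background in L1, so that its difference has no exact size. HBM was among the genes that the study singled out on these same arrays, so its higher LN mean is not independent evidence.

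HBB (NM_173917), the adult beta globin gene, read 14.01 in L5, 10.73 in L6, 9.78 in L8 and 10.50 in L9. Its HN values were 7.21 in L1, 9.63 in L2, 10.61 in L3 and 10.75 in L10. Apart from L5 and L1, the other 6 livers lay within 1.12 log2 units of each other, with LN and HN fetuses interleaved. The log2 difference between the LN mean of 11.25 ± 1.88 and the HN mean of 9.55 ± 1.64 (SD, n = 4 each) was 1.71 ± 1.03 (SE), with a limma adjusted p of 0.814.

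HBG (NM_001014902), the fetal beta-like globin gene, read 17.31 in L5, 14.59 in L6, 13.92 in L8 and 14.39 in L9. The HN fetuses read 11.76 in L1, 14.21 in L2, 15.42 in L3 and 14.40 in L10. L3 of the HN group was therefore second only to L5. The log2 difference of HBG was 1.104 ± 0.905 (SE), with a limma adjusted p of 0.858, and the other HBG probes gave 1.14 and 1.23. HBB, HBG and the embryonic epsilon globins are similar in sequence, and whether their probes capture each other's transcripts was not tested.

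The genes of heme synthesis and globin folding followed. ALAS2 (NM_001035103) read 8.78 in L5, 5.76 in L6, 4.74 in L8 and 5.67 in L9, against 3.30 in L1, 5.04 in L2, 6.33 in L3 and 5.43 in L10. As for HBM and HBG, L3 came next to L5. The log2 difference of ALAS2 was 1.21 ± 0.90 (SE), with a limma adjusted p of 0.844, and normexp background correction reduced the difference of ALAS2 to 0.64.

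AHSP (NM_177522) differed in form from the other members. It read 10.97 in L5 and between 7.11 and 7.61 in the other 7 livers: 7.31 in L6, 7.16 in L8, 7.30 in L9, 7.11 in L1, 7.12 in L2, 7.61 in L3 and 7.44 in L10. Thus AHSP was high in L5 alone, and L1 lay beside L2. The SD of AHSP was 1.86 in the LN group and 0.246 in the HN group, where 41.1% of genes had an SD at least as large. The log2 difference of AHSP was 0.87 ± 0.78 (SE), with a limma adjusted p of 0.870.

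Among the regulators, GATA1 (NM_001206240) was well above background on 5 arrays. It read 6.68 in L5, 3.25 in L6 and 4.42 in L9 of the LN group, and 3.30 in L2 and 2.92 in L3 of the HN group. L8, L1 and L10 were not well above background, with signals of 2.77, 1.94 and 2.43. GATA1 was the only detected member in which L9 stood second, and L3 lay below L2 there. The log2 difference of GATA1 was 1.64 ± 0.77 (SE) with a limma adjusted p of 0.785, and its unadjusted p of 0.0623 was the lowest of the detected members. With 3 arrays at background this difference has no exact size, and normexp reduced the log2 difference of GATA1 to 0.43.

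**Figure D1:**
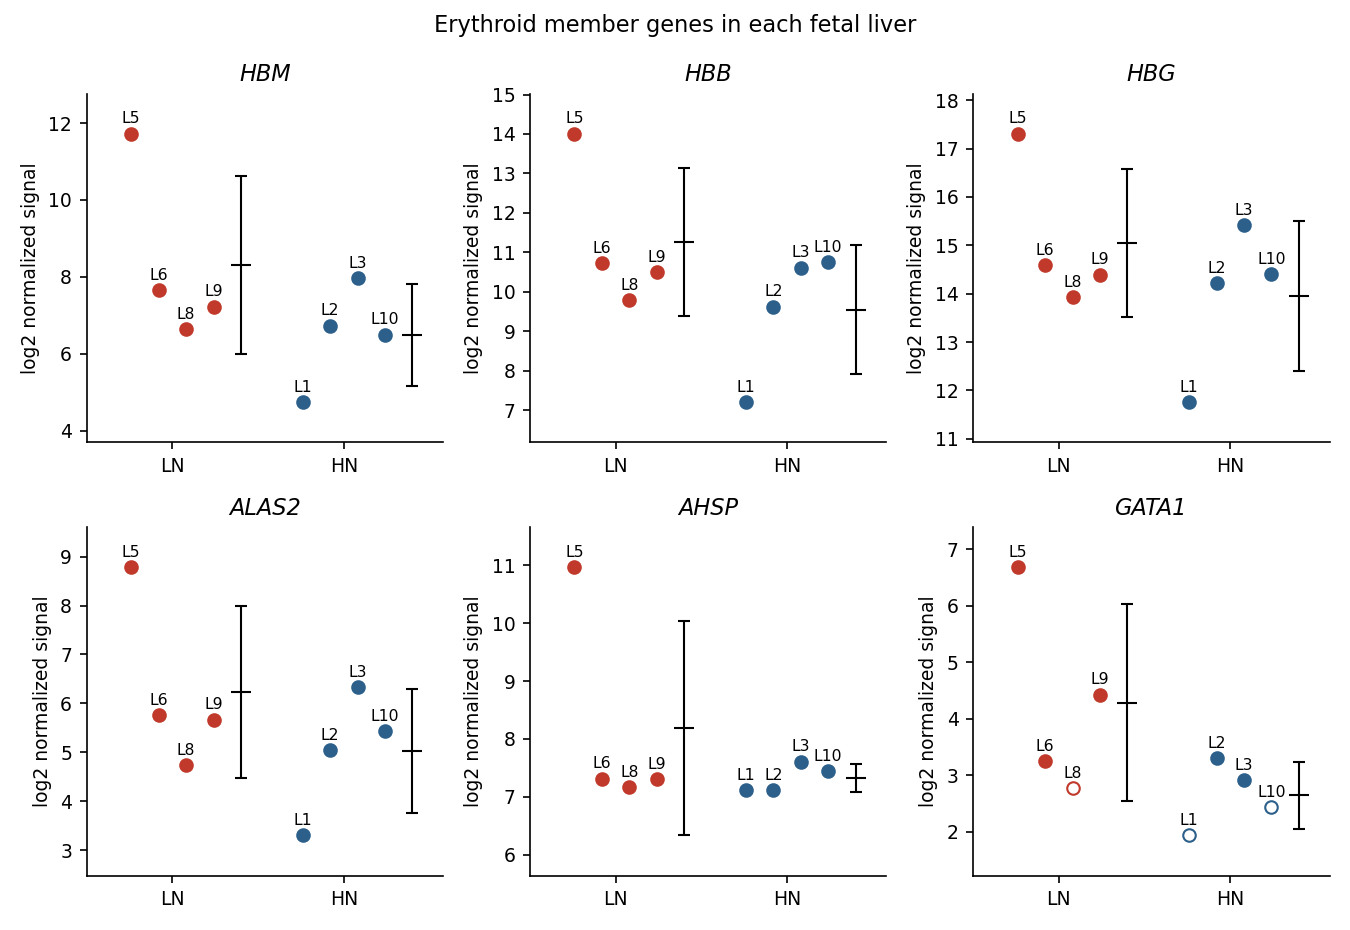
Log2 quantile-normalized signal (vertical axis, a separate scale for each gene) of the 6 detected members in the 4 LN (red) and 4 HN (blue) fetuses, with the group mean and SD as black bars; open points were not well above background. L5 is the highest point in every panel, L1 is the lowest, and the AHSP values of the other 7 livers lie between 7.11 and 7.61.

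The remaining 4 members were close to the detection limit in all livers but L5. KLF1 (NM_001080359) read 7.31 in L5 and was not well above background on any of the other 7 arrays. The signal in L5 was at least 20.0-fold above the other livers, when each of them is set to the higher of its own signal and the lowest signal among its probes well above background. HEMGN (NM_001077055) read 6.89 in L5 alone, at least 15-fold above the other livers by the same bound. One of the SLC4A1 probes (NM_181036) read 7.06 in L5 alone, at least 16.9-fold above the others, and the other 2 probes of SLC4A1 were not well above background on any array.

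EPB42 (NM_174312) was measured in a few more livers. Its probes read 5.75, 4.85 and 4.79 in L5. The first was also above background in L3 of the HN group at 3.05, the second in no other liver, and the third in L6 at 3.21. With these genes included, 10 of 10 members had a probe above background in L5, against 7 in L6 and in L3, 6 in L9 and in L2, and 5 in L8, L1 and L10. Over all probes on the array, 75.8% were above background in L5 and between 74.5% and 78.4% in the other livers. Of the 18 member probes, 4 were above background in L5 only, compared with 0.142% of all 26740 probes of named genes.

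**Figure D2:**
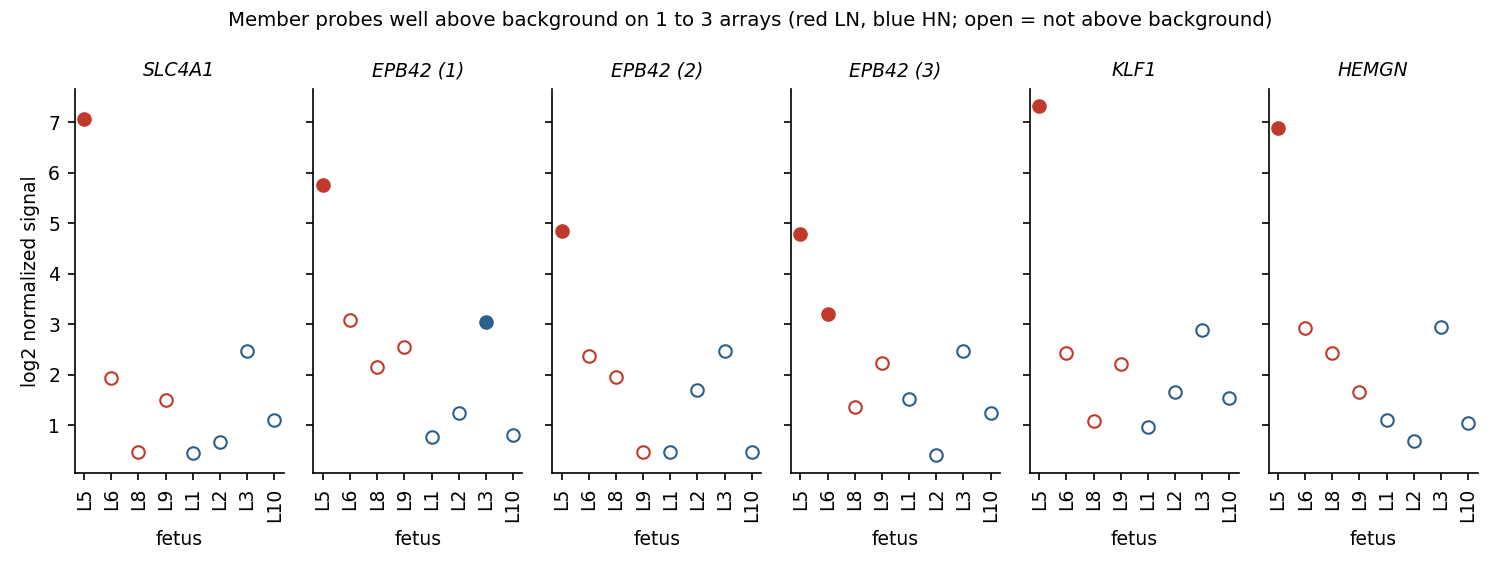
Log2 normalized signal (vertical axis) of the 6 probes of SLC4A1, EPB42, KLF1 and HEMGN that were above background on at least 1 but fewer than 4 arrays, in each fetus (horizontal axis; red LN, blue HN). Filled points were well above background: L5 in every panel, and otherwise EPB42 in L6 and in L3 alone.

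No member passed the test between LN and HN. Of the detected members, 0 of 6 had an adjusted p of 0.05 or below and 0 of 6 an unadjusted p of 0.05 or below, where 3.3% of the 10860 genes with a detected probe were called higher and 2.75% lower at the unadjusted threshold, and 0.0% at the adjusted one. The exact 2-sided permutation test over the 70 assignments of fetuses to groups gave p between 0.143 for GATA1 and 0.657 for AHSP, where 0.0286 is the smallest p this design allows. The LN and HN values overlapped in all 6 detected members, while 4.14% of all genes had groups that did not overlap.

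The means themselves lay as follows. The median log2 difference of the 6 detected members was 1.42, against 0.0075 over all genes. The LN mean was higher in 6 of the 6 (51.6% of genes), and 5 of the 6 (GATA1 included) were more than 2-fold higher in the LN mean, where 0.617% of genes were. With normexp 3 were. With no filter on dim probes, the LN mean was higher in 10 of 10 members (52.7% of all genes), by a median of 1.601 against 0.011 over all genes. In 9 of 10 it was more than 2-fold higher (0.881% of genes), and 0 members had an unadjusted p of at most 0.05 (4.27% of genes were called higher). Some of these signals are at background, so their log2 differences have no exact size.

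These differences rested on L5 and L1. Without L5, the log2 difference was 0.69 for HBM, 0.79 for HBB, 0.35 for HBG, 0.36 for ALAS2, 0.84 for GATA1 and -0.060 for AHSP, and 0 members remained above 2-fold. Without L1, it was 1.25 for HBM, 0.93 for HBB, 0.38 for HBG, 0.64 for ALAS2, 1.40 for GATA1 and 0.80 for AHSP. Without both fetuses, HBM (0.11) and HBB (0.0085) were near 0, HBG (-0.38), ALAS2 (-0.21) and AHSP (-0.13) had a lower LN mean, and GATA1 was at 0.60. The omission of both was chosen after their values had been seen.

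L5 and L1 also shared the first position on their slides. Within that position the log2 difference was 6.98 for HBM, 6.80 for HBB and 5.54 for HBG. In the second position (L6 against L2) it was 0.92 for HBM, 1.11 for HBB and 0.38 for HBG, and in the third (L8 against L3) it was -1.32, -0.83 and -1.50 in the same order. In the fourth (L9 against L10) it was 0.73 for HBM, -0.25 for HBB and -0.0086 for HBG. Thus the 3 globins had the higher LN signal together in the first and second positions and the higher HN signal together in the third. The 75th percentile of the signal before normalization was 843 on the array of L5, and between 512 and 787 on the other 7. With position as a block the limma adjusted p was 0.952 for HBM, 0.954 for HBB, 0.964 for HBG, 0.962 for ALAS2, 0.960 for AHSP and 0.940 for GATA1. The part of brightness in the result was not tested, while scaling to the 75th percentile in place of quantile normalization left HBM at 1.74 and HBB at 1.70.

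**Figure D3:**
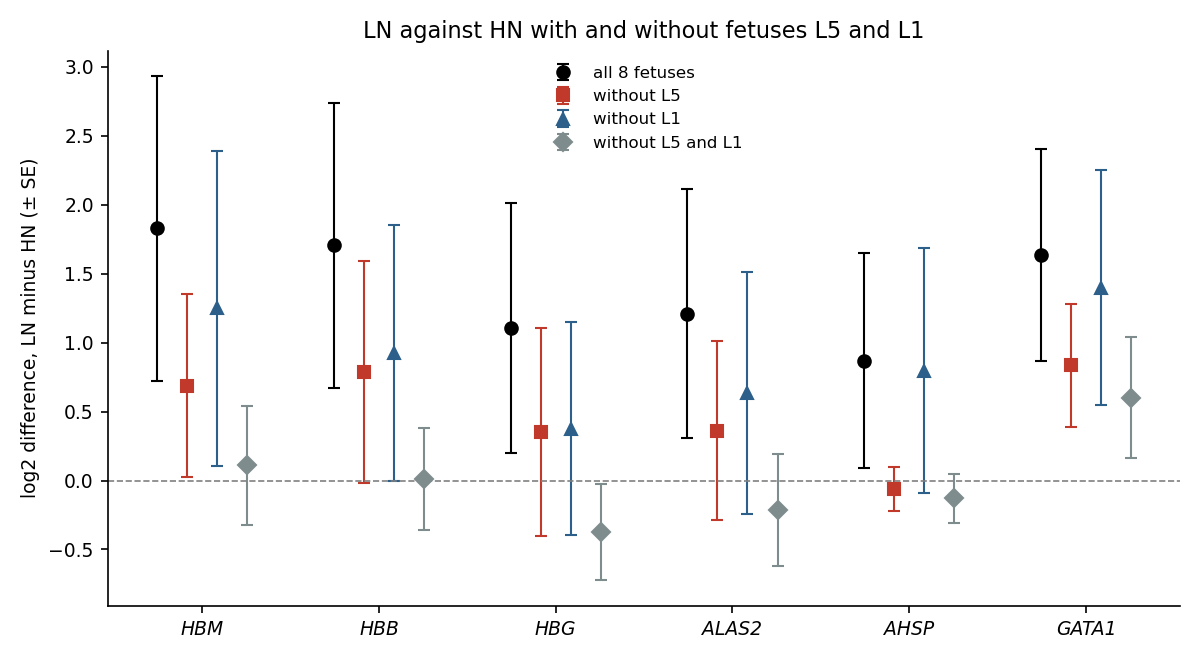
Log2 difference between LN and HN means (vertical axis, with the limma SE) of the 6 detected members with all 8 fetuses (black), without L5 (red), without L1 (blue) and without both (grey). HBM moves from 1.83 to 0.11 and HBG from 1.104 to -0.38 when both fetuses are left out.

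The members varied widely between fetuses. Over the 8 arrays the SD was 2.0 for HBM, 1.87 for HBB, 1.54 for HBG, 1.56 for ALAS2, 1.31 for AHSP and 1.49 for GATA1, while the median SD over all genes was 0.238. Of all genes, 0.175% had an SD as large as that of HBM, and 0.866% as large as that of AHSP. L5 exceeded L1 by 126-fold for HBM, 111-fold for HBB, 46.7-fold for HBG, 44.7-fold for ALAS2 and 14.5-fold for AHSP. For GATA1, which was not above background in L1, the excess was at least 15.8-fold.

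L5 and L1 differed in which members they set apart. L5 was more than 1 log2 unit above the next liver in all 6 detected members, where 0.193% of genes were, and the step to the next liver was 13.6-fold for HBM, 11.7-fold or 10.3-fold for the AHSP probes, 9.57-fold for HBB, 5.48-fold for ALAS2, 4.77-fold for GATA1 and 3.70-fold for HBG. L1 was the lowest liver in all 6 (8.2% of genes) and more than 1 log2 unit below the next in 4 of them (0.129% of genes), namely HBM, HBB, HBG and ALAS2. Here the step was 5.33-fold for HBB, 4.47-fold for HBG, 3.36-fold for HBM and 2.70-fold for ALAS2, but 1.00-fold for AHSP.

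In all, 21 genes were more than 1 log2 unit higher in L5 than in any other liver. They held the 6 detected members and 6 further genes of the erythroid lists, among them TRIM10, CA2, HBE4, HBA and NFE2. TRIM10 read 7.44 in L5 and 4.97 in the next liver, L3. CA2 (carbonic anhydrase 2) read 11.65 in L5 and 9.22 in the next, L8. The other 9 genes were in no list: SSX5, MGC127133, S100G, MISP, NKG2A, MYOC, IL1R2, ACBD7 and CPA3. Other fetuses stood above the rest in this way for other genes, from 3 genes in L1 to 49 in L10.

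**Figure D4:**
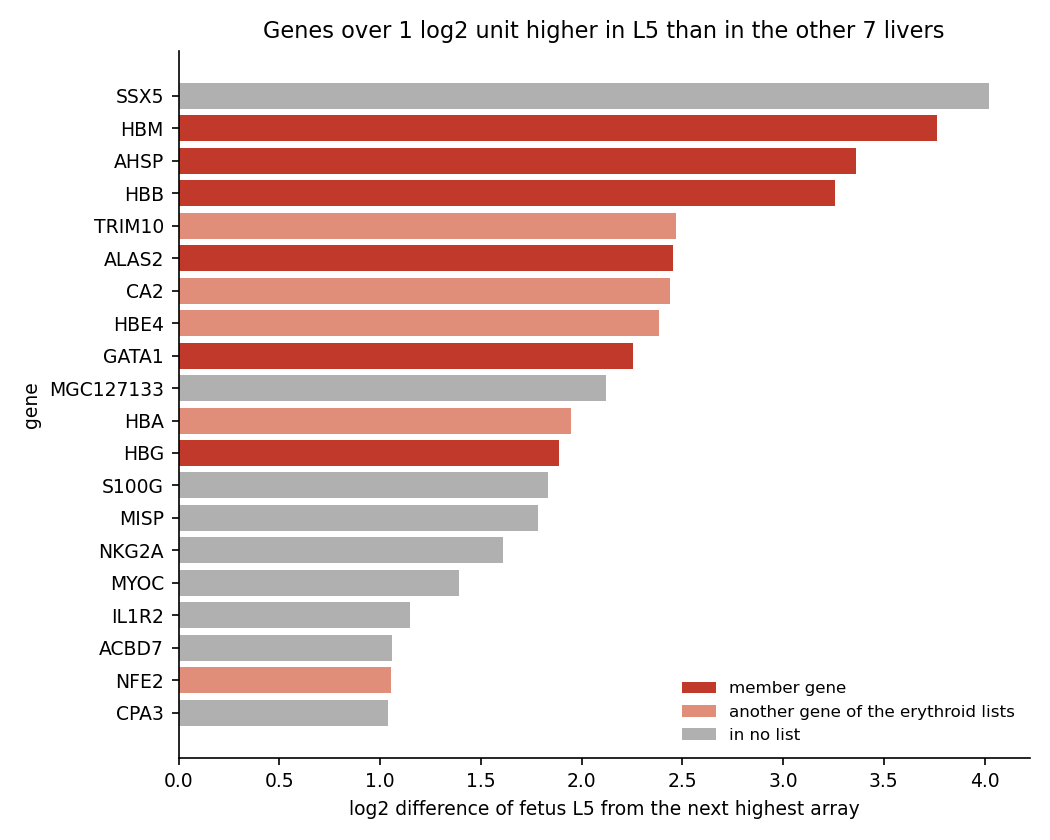
Log2 difference of L5 from the next highest array (horizontal axis) for 20 of the 21 genes in which it exceeds 1; dark red bars are members, light red bars are other genes of the erythroid lists and grey bars are genes in no list. Of the genes shown, SSX5 leads with 4.02, followed by HBM (3.77) and AHSP (3.36).

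Of the further globins, HBA and HBE4 had L5 highest and L1 lowest, as the 6 detected members did. HBA (alpha globin) read 16.83 in L5, 14.44 in L6, 13.70 in L8 and 14.33 in L9, and 12.88 in L1, 13.78 in L2, 14.88 in L3 and 14.31 in L10. HBE4, an embryonic beta-like globin gene, ran from 10.63 in L5 to 4.42 in L1, with L3 second at 8.24. HBQ1 (theta globin) lay between 8.14 and 8.61 in all 8 livers. In the reference annotation HBB and HBG lie in a row with HBE1, HBE4 and HBE2, and HBM lies in a row with HBZ, HBA, HBA1 and HBQ1, so that HBQ1 differed in form from HBM and HBA of the same locus. HBE1 was above background in L9 (2.85) and L3 (2.78) but not in L5, and HBE2 on no array. The log2 difference was 0.86 for HBA, 1.31 for HBE4 and 0.16 for HBQ1, with limma adjusted p of 0.851, 0.849 and 0.855. Without L5 and L1 it was -0.17 for HBA and -0.33 for HBE4.

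The wider erythroid program was examined in 6 lists of 107 genes, of which 70 were detected, and 3 of these had an unadjusted p of at most 0.05 with a higher LN mean (3.3% of genes over the array) and 0 with a lower one. None passed after adjustment. E2F4 and ALOX15 were among the 3. E2F4 had a log2 difference of 0.27 and an adjusted p of 0.768, and ALOX15, a lipoxygenase of maturing red cells, of 1.098 and 0.760. The E2F4 probes pointed in opposite directions, and the mean over them gave a log2 difference of 0.033 with an unadjusted limma p of 0.901. The median difference over the 70 genes was 0.040, against 0.0075 over all genes.

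The heme synthesis list had a median log2 difference of 0.074 over 14 detected genes, with 9 higher and 5 lower LN means. Its largest differences were in FECH (0.39, with probes of both directions), UROS (-0.36) and ALAD (-0.25), enzymes that other cells of the liver also use. When 1 fetus was left out, FECH lay between 0.029 (without L9) and 0.71, UROS between -0.49 and -0.19 and ALAD between -0.35 and -0.17. The membrane list had a median of 0.029 over 9 genes. Of these, 3 were more than 2-fold higher in the LN mean (0.617% of genes), TRIM10 (1.72) among them. At an unadjusted limma p of at most 0.05, 1 was higher (3.3% of genes). TRIM10 was above background on 4 arrays, so its difference has no exact size. Without L5 the log2 difference of TRIM10 was 0.85, and with normexp it was 0.46.

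The list of further erythroid transcription factors had a median of 0.10 over 14 genes. NFE2 (0.85), GATA2 (0.81) and MYB (0.77) differed most, and without L5 these were 0.46, 0.42 and 0.65. Separate LN and HN values were found in 1 of the 14, E2F4 by its brighter probe (4.14% of genes). The erythropoietin and iron uptake list had a median of -0.00044 over 12 genes, led by EPO (0.52), CISH (0.44) and TFR2 (-0.36), and the list of late red cell enzymes a median of 0.014 over 18 genes, led by ALOX15, CA2 (0.89) and PKLR (-0.40). Without L5 the log2 difference of CA2 was 0.17 and that of EPO 0.25. When 1 fetus was left out, CISH lay between 0.29 and 0.57 and TFR2 between -0.56 and -0.12. In EPO, which encodes the hormone that sustains erythroblasts and is made by fetal liver, the adjusted p was 0.881.

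**Figure D5:**
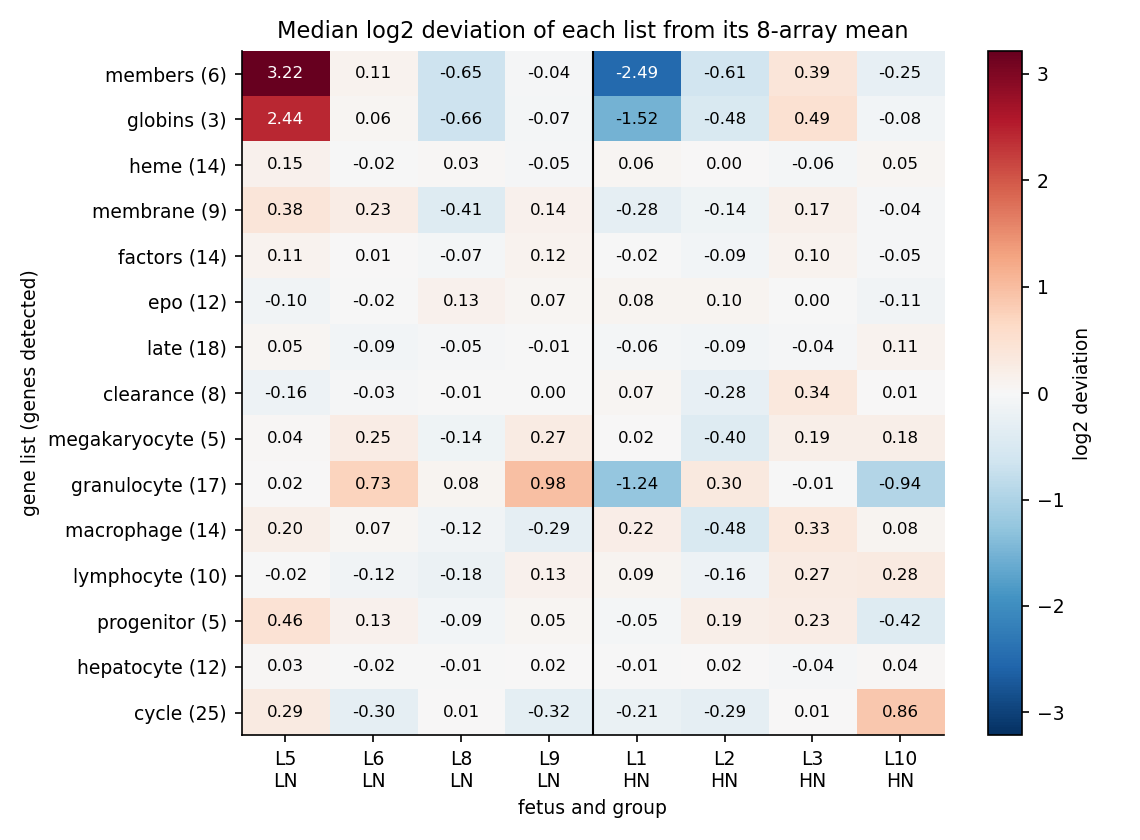
Median log2 deviation of each gene list from its mean over the 8 arrays (colour and printed value), by fetus (horizontal axis) and list (vertical axis, with the number of detected genes). The member and globin rows reach 3.22 and 2.44 in L5 and -2.49 and -1.52 in L1. The hepatocyte row, of genes near the top of the signal scale, runs from -0.037 to 0.043.

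Markers of the other cells that a fetal liver can hold were set beside these values. Of the granulocyte list, 17 of 23 genes were detected, 6 had an unadjusted p of at most 0.05 with a higher LN mean (3.3% of genes) and 0 with a lower one, and the median log2 difference was 0.89. The mean log2 signal of this list lay between 8.48 and 9.72 in the LN group and between 7.78 and 8.82 in the HN group. CATHL4 (1.78), CAMP (1.45) and CATHL3 (1.39), which encode antimicrobial peptides of neutrophil granules, differed most, and the groups did not overlap for CATHL4, MPO (1.32) and ELANE (0.91), where 4.14% of all genes did not overlap. The LN mean was higher for 14 of the 17 genes, of which 7 were more than 2-fold higher (0.617% of genes), and lower for 3, of which FCN1 (-1.01, named after its value was seen) was more than 2-fold lower (0.571% of genes). The adjusted p was 0.760 for CATHL4, MPO and ELANE.

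The granulocyte list did not follow the order of the erythroid genes at the upper end. Its median deviation was 0.98 in L9 and 0.73 in L6, but 0.021 in L5. L5 was the highest liver for 0 of its 17 genes (16.3% of all genes). At the lower end the median deviation was -1.24 in L1 and -0.94 in L10, and L1 was the lowest liver for 10 of the 17 (8.2% of all genes). Its median was 1.05 without L5 and 0.56 without L1. When 1 fetus was left out, the count of 6 lay between 4 (without L9, L1 or L10) and 9 (without L2). Its part in the differences of the member genes was not tested.

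The remaining lists had medians between -0.15 and 0.20. The platelet and megakaryocyte list had a median log2 difference of 0.10 over 5 genes, with PF4 at 1.02, ITGB3 at 0.20 and TUBB1 at 0.10. PF4 was the 1 gene of the 5 at an unadjusted p of at most 0.05 (3.3% of genes) and the 1 more than 2-fold higher (0.617% of genes), with a limma adjusted p of 0.760. The blood stem and progenitor list had a median of 0.20 over 5 genes, led by GATA2, HLF (-0.53) and KIT (0.34). HLF was not above background in L5 and stood at -0.11 without it, and KIT stood at 0.084 without L10 and at 0.79 (unadjusted limma p of 0.034) as the mean over its probes. The macrophage and erythroblastic island list had a median of -0.052 over 14 genes, led by VCAM1 (-0.35), C1QB (-0.20) and C1QC (-0.20). When 1 fetus was left out, VCAM1 lay between -0.53 and -0.19, C1QB between -0.40 and -0.075 and C1QC between -0.38 and -0.074. MAEA (-0.11), the erythroblast macrophage protein, was the only gene of the 14 whose groups did not overlap (4.14% of genes), though its probes pointed in both directions.

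For lymphocytes the median was -0.15 over 10 genes, all with a lower LN mean (48.4% of genes), with CD3E (-0.45) and PTPRC (-0.35) among those that differed most. In this list 1 gene was lower at an unadjusted p of at most 0.05 (2.75% of genes), and 0 passed after adjustment. The haemoglobin clearance list had a median of -0.11 over 8 genes, with HP (0.76), HRG (-0.39) and CD163 (-0.27) at its head. When 1 fetus was left out, HP lay between 0.30 and 1.21 and HRG between -0.63 and -0.14. The hepatocyte list had a median of 0.0066, led by AFP (0.34), RBP4 (-0.23) and FGG (0.11). The cell division list had a median of -0.15 over 25 genes, led by CCNB1 (-0.37), TPX2 (-0.35) and PLK1 (-0.35), and its highest median deviation was 0.86, in L10, with 0.29 in L5. Without L10 its median difference was 0.13, of the opposite sign. When 1 fetus was left out, CCNB1 lay between -0.74 and -0.066, TPX2 between -0.48 and -0.12 and PLK1 between -0.46 and -0.18.

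The genes with the pattern most like that of the members were sought by Pearson correlation over the 8 arrays with the mean z score of the 6 detected members. These values describe 8 livers, in which L5 and L1 carry most of the range. The highest r was that of HBA (0.99), followed by SSX5 (0.98), HBE4 (0.97), FXYD3 (0.96), LOC781988 (0.95), TRIM10 (0.95), MGC127133 (0.94), MTA2 (0.93), AKR1B1 (0.93) and NFE2 (0.93). In the 6 livers without L5 and L1, r was 0.93 for HBA, 0.89 for HBE4, 0.93 for TRIM10 and 0.92 for MTA2, but 0.52 for LOC781988, 0.47 for MGC127133 and 0.39 for NFE2. The ranges were very unequal: MTA2, a chromatin remodelling subunit, ran from 10.72 in L1 to 11.24 in L5, and its SD of 0.166 was exceeded or reached by 74.5% of genes.

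Each member was set against the mean of the other 5 in the same way. Over the 8 livers r was 0.99 for HBM, 0.98 for ALAS2, 0.96 for HBB, 0.94 for HBG, 0.89 for GATA1 and 0.88 for AHSP. In the 6 livers without L5 and L1 it was 0.94 for ALAS2, 0.83 for HBM, 0.76 for HBG, 0.68 for AHSP and 0.61 for HBB, and 0.068 for GATA1. Within these 6 livers, ALAS2, HBM and HBG thus had L3 at the top and L8 or L10 at the bottom, while the GATA1 signals, of which 2 were at background, had another order.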

How the data were processed

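Livers of 4 LN and 4 HN fetuses were profiled on 1-colour Agilent bovine arrays (design on the UMD 3.1 build). The deposited intensity of a spot is the background-subtracted processed signal of Agilent Feature Extraction 11.0.1.1 (version from the submitters' processing notes), without normalization across arrays. The authors deposited a log2 table of 31068 probes, of which 31061 were well above background on all arrays here. When these 31061 probes were quantile normalized on their own, they differed from that table by at most 0.161. The values reported here come from a normalization of all kept probes, and their difference from the table was not tested. The quantile normalization of the authors' table in GeneSpring GX is named in the methods, which name no test for the arrays.

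After removal of control and outlier spots, log2 signals of replicate spots were averaged and 43637 probes were quantile normalized. Of these, 26740 matched 1 of 12603 genes by accession in a reference table of assembly ARS-UCD2.0, whose build differs, so that no coordinates are given. A probe was kept if 4 of 8 arrays held it well above background, and the brightest kept probe stood for its gene. The groups were tested in limma 3.58.1 (R 4.3.3; empirical Bayes moderated, 2-sided), with Benjamini-Hochberg adjustment over all kept probes. The test was checked on simulated data in which probes varied independently and changed probes shifted equally in all LN arrays. That check does not cover genes that move together in single fetuses. Exact permutation tests used all 70 assignments. With 4 arrays per group, their number limits the precision.

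Every probe of the members is described. From each other list, the 3 genes with the largest absolute difference and every gene whose groups did not overlap are named, as are the 10 genes most like the members. A few genes that this rule names enter the counts and medians, but their own values are not reported here. Genes in which L5 stood apart were named after their values were seen. The members and lists were chosen with earlier results of these data known. Alternatives were other scalings, background correction, filters, test settings and the omission of each fetus. Promoters and proteins of the members were not analysed here.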

Additional observations from a re-analysis of the deposited data

Results flagged for a closer look

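Within groups of 4 fetuses, a value was picked out when its gap to the nearest other value, divided by the range of the group, exceeded Dixon's 95% critical value. Of 128 groups examined, 4 were picked out, where chance gives about 1 in 20 for independent, unselected groups. The groups here include several probes of a gene and genes named for their values. Both AHSP probes were among the 4, with L5 of the LN group at 10.71 and 10.97 on the log2 scale (gaps of 0.940 and 0.961 of the range). AKR1B1 was picked out with L5 at 12.24 in the LN group. It had been named for its likeness to the members, in which L5 is highest, so this is not independent. TPX2, of the cell division list, was picked out with L10 at 10.24 in the HN group. The other 14 member probes that were above background on any array did not pass the critical value in either group, although L5 was the highest liver on each of them. Of these, 4 were above background in L5 only. The 2 SLC4A1 probes that were above background on no array were not examined.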

How the results depend on the processing

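No paired analysis was possible because the LN and HN fetuses share no replicate number; slide position was used as a block instead. Over 17 alternatives (15 for GATA1), 0 members reached an adjusted p of 0.05, with limma adjusted p from 0.655 to 1.00. The number of members at an unadjusted p of at most 0.05 was 0 with all fetuses, and 0 to 1 when 1 fetus was left out (GATA1 without L6 or without L8). The number more than 2-fold higher in LN was 5, and 0 to 6 when 1 fetus was left out (0 without L5, 2 without L1), 0 without both, 9 with no filter and 3 with normexp. The number of members with L5 more than 1 log2 unit above the next liver was 6 of 6, 5 of 6 with normexp, 5 of 5 with detection on all arrays or in the authors' table, and 10 of 10 with no filter.

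Leaving out 1 fetus gave log2 differences of both signs for AHSP (-0.060 without L5 to 1.21), ITGB3 (-0.094 without L9 to 0.58, and -0.083 without L2), TUBB1 (-0.10 without L3 to 0.28, and -0.085 without L5) and AKR1B1 (-0.021 without L5 to 0.19). TUBB1 was also negative with the 75th percentile (-0.097). Leaving out both L5 and L1 turned HBG (-0.38), ALAS2 (-0.21), AHSP (-0.13), HBE4 (-0.33), HBA (-0.17), SSX5 (-0.51), FXYD3 (-0.092) and AKR1B1 (-0.076). The erythroid lists' count of 3 was 1 to 6 when 1 fetus was left out (1 without L2, 6 without L3 or L6, 5 without L8), 1 with slide position as a block and 1 without L5 and L1. For list medians, the SD is that of a list's median deviation between fetuses, pooled within groups. They moved beyond 1 SD for heme (-0.035) and hepatocyte (-0.023) with probe means, and for lymphocyte without L5 and L1 (-0.35). The erythropoietin median did so without L2 (0.099), while its -0.068 without L6 lay within 1 SD. Within 1 SD, the omission of 1 fetus also gave medians of both signs for membrane (-0.054 to 0.22), late enzymes (-0.056 to 0.062), megakaryocyte (-0.083 to 0.18), macrophage (-0.24 to 0.011) and cell division (-0.37 to 0.13). The causes were not tested. With centred values in place of z scores, 8 of the 10 genes most like the members were shared.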
